A study of Homo sapiens with 30 samples.

Results

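A set of 7 genes of the aryl hydrocarbon receptor (AHR) pathway was followed in HepG2 cells treated with Sorafenib, out of 60107 genes counted: CYP1A1, CYP1A2, CYP1B1, AHR, ARNT, AHRR and TIPARP. They were chosen by symbol, as the receptor, its partner, its feedback genes and its best known targets, after a fall of CYP1A1 with Sorafenib at 6 h had been seen in these libraries. The values of CYP1A1 and of the other members under Sorafenib at 6 h are therefore given as a description, with no p, and calls among them are counted only beside the share of all genes called. All 7 symbols matched 1 row of the count table each.

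AHR is a transcription factor of the basic helix-loop-helix PAS family that waits in the cytosol with chaperones and moves to the nucleus when it binds a ligand, such as a dioxin, a polycyclic aromatic hydrocarbon or a tryptophan derivative. There it pairs with ARNT, also the partner of the hypoxia-inducible factors, and binds DNA at the xenobiotic response element, whose core is GCGTG. In liver cells the classical output is transcription of the CYP1 monooxygenases, while AHRR, a repressor that competes for ARNT, and TIPARP, an enzyme that ADP-ribosylates AHR, are induced targets that close a negative feedback loop.

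HepG2 is an established human liver cancer cell line, named hepatocellular carcinoma in the labels and hepatoblastoma in the study, so all groups are 1 genetic background and the oligonucleotides acted transiently. Messenger RNA was measured in 30 QuantSeq 3′ libraries, in which each transcript is sampled near its 3′ end, in 10 groups of 3 biological replicates. Cells received 10 µM Sorafenib, a multikinase inhibitor, or its solvent DMSO, starting 24 h after transfection. In the 6 h experiment the cells carried an inhibitor control (IC) or an inhibitor of miR-200c-3p (I200c), and in the 24 h experiment a mimic, either M222, which stands in for miR-222-5p, or M512, for miR-512-3p, or else MC, the control for both. Groups are named by transfection and treatment, so that M512_DMSO is the mimic of miR-512-3p with solvent only.

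The total count per library was 3940000 to 9660000, and 13252 to 16812 genes had a count. Levels are in CPM (counts scaled to library size). With 3 counts as the limit for a count of 0, a gene not seen could reach between 0.311 and 0.762 CPM in a library, and such limits cover counting error only. All 8 hepatocyte markers examined were present in every library, with ALB between 2353 and 5135 CPM. Of 8 markers of blood, endothelial, stromal and bile duct cells, VWF, COL1A2 and DCN had no count in any library, and the summed level of the 8 was 1.40 to 17.5 CPM, highest in M512_DMSO (11.8 to 17.5). The part of these low markers in the results was not tested. A level is a share of the library's RNA, so fewer cells expressing a gene and less of its RNA per cell cannot be told apart.

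Sequences of 2 kinds frame the values: the binding element upstream of the members and the seed sites of the transfected microRNAs. The longer form of the element, TNGCGTG (N is any base, and its complement is CACGCNA), contains the core GCGTG and was searched on both strands in the 2000 bases before each RefSeq start on GRCh38. CYP1A1, on the minus strand of chromosome 15 (chr15:74719542-74725536), held 5, at 1385, 1061, 986, 898 and 503 bases before its start. At least 1 was found before 28.2% of 27305 genes, and as many as 5 before 0.04761%. ARNT held 2, TIPARP and AHRR held 1 each before the first start listed, and AHR and CYP1A2 held 0. The 1 of AHRR lay 32 bases before the start, inside the 300-base promoter, where 5.512% of genes have one. CYP1B1 (chr2:38066973-38109902) was not searched. The 300 bases upstream of CYP1A1 that hold 3 of its 5 elements (chr15:74726355-74726654, minus strand) and the element of AHRR (chr5:321672-321698, plus strand) are printed with TNGCGTG or its complement in capitals. A match in letters is a description and no proof of binding.
CYP1A1 upstream: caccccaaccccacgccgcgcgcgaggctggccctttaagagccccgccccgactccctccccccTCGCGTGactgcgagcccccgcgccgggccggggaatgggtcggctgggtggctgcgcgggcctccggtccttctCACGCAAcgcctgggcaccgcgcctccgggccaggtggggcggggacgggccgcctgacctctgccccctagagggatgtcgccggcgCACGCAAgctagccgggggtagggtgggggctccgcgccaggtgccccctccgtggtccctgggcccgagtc
AHRR element: ggcgggcggcTCGCGTGccggggtggg

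The first strand of these libraries is primed with oligo-dT, and the levels of the mature microRNAs themselves were not measured in them. The seed, bases 2 to 8, is in capitals, and a seed site is the 7-base complement of it in a 3′ untranslated region.
miR-200c-3p: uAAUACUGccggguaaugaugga
miR-222-5p: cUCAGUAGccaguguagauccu
miR-512-3p: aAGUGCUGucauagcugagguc
Sites are given for miR-200c-3p and miR-222-5p only. Of the canonical 3′ untranslated regions of 19959 genes, 15.72% held the site of miR-200c-3p and 9.023% that of miR-222-5p. Of these sites AHR held 1 for miR-200c-3p (chr7:17345917-17345939), and CYP1B1 held 2 for miR-200c-3p and 1 for miR-222-5p, and the other 5 members held 0. The site of AHR is shown because AHR was the member with a site of the inhibited microRNA that was measured well.
AHR, miR-200c-3p: tacctgaagacttacCAGTATTc

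CYP1A1, the inducible monooxygenase that oxidises polycyclic aromatic hydrocarbons, was high in DMSO at 6 h and low with Sorafenib in the same experiment. Read counts in IC_DMSO were 237, 143 and 283, or 46.5, 32.9 and 68.9 CPM, against 71, 95 and 21 counts in IC_sorafenib, or 12.4, 15.4 and 2.94 CPM. In I200c_DMSO the counts were 390, 589 and 708 (58.2, 72.9 and 78.8 CPM), and in I200c_sorafenib they were 17, 19 and 1 (1.91, 1.95 and 0.119 CPM). In both transfections every Sorafenib library lay below every DMSO library, and in both the third replicate was the lowest with Sorafenib and the highest with DMSO. The fitted log2 fold change was -2.29 (SE 0.43) with IC and -5.69 (SE 0.53) with I200c, that is 0.204 and 0.0194 of the DMSO level. These 2 differences are what CYP1A1 was chosen for. Leaving out any 1 library gave -2.72 to -1.83 with IC and -6.06 to -5.17 with I200c.

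Side by side, the inhibitor of miR-200c-3p went with a higher mean in DMSO (70.0 ± 10.6 against 49.4 ± 18.2 CPM, SD, n = 3, ranges overlapping). With Sorafenib it went with a lower mean (1.33 ± 1.05 against 10.2 ± 6.50 CPM). The log2 differences of I200c to IC were 0.52 (SE 0.39) in DMSO and -2.88 (SE 0.55) with Sorafenib. Both share the libraries that chose the gene and are descriptions too.

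**Figure D1:**
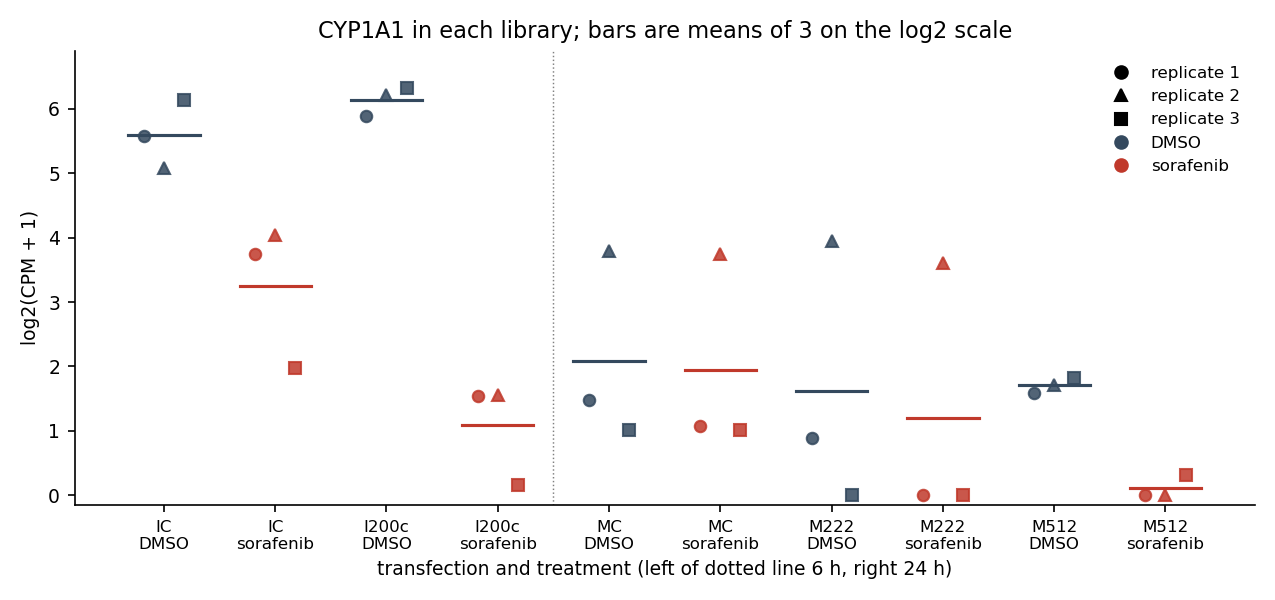
CYP1A1 level, log2(CPM + 1), in each of the 30 libraries (vertical axis) by transfection and treatment (horizontal axis), with the replicate number as the marker and a bar at the mean of 3. At 6 h the DMSO libraries lie above the Sorafenib libraries in both transfections, and at 24 h the replicates numbered 2 of MC and M222 stand above the others in both treatments.

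At 24 h CYP1A1 was low in most libraries, and 4 libraries stood apart. Counts were 14, 52 and 7 in MC_DMSO and 8, 62 and 7 in MC_sorafenib, or 1.78, 12.8 and 1.01 CPM and 1.12, 12.3 and 1.03 CPM. With the mimic of miR-222-5p they were 8, 64 and 0 in DMSO and 0, 49 and 0 with Sorafenib, so that the second replicate was at 14.4 and 11.1 CPM and the others were at 0 to 0.853 CPM. The second replicate was thus the high one in all 4 groups of MC and M222, with either treatment, and its level was 11.1 to 14.4 CPM. It was not high in M512, where DMSO gave 16, 15 and 18 counts (1.99, 2.28 and 2.55 CPM) and Sorafenib 0, 0 and 2 (0, 0 and 0.249 CPM). The 4 libraries had total counts of 3940000 to 4940000, against 5690000 to 8760000 in the other 14 libraries of 24 h. The labels give the number and no batch, and the part of depth or of a shared culture in these values was not tested.

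Sorafenib changed CYP1A1 past the threshold in none of the 3 transfections at 24 h. The log2 fold change was -0.08 (SE 1.44, adjusted p = 0.987) with MC and -0.48 (SE 1.46, adjusted p = 0.901) with M222. Within the second replicates alone the level went from 12.8 to 12.3 CPM with MC and from 14.4 to 11.1 CPM with M222. One library decided the sign in both: without MC_DMSO replicate 2 the value with MC was 1.77 and without MC_sorafenib replicate 2 it was -2.21, while with M222 the same steps gave 2.92 and -8.02, none of them past the threshold.

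With M512 the 2 treatments did not overlap for CYP1A1, which 16.3% of all genes tested also showed in this direction. The log2 fold change was -4.24 (SE 1.99, adjusted p = 0.188), and the fit shares its estimate of spread with the scattered MC and M222 libraries. Summed over replicates, 2 counts with Sorafenib against 49 with DMSO gave a ratio of 0.0482, with a 95% exact counting interval of 0.00568 to 0.184. That interval covers counting error only and leaves out the spread between replicates. The 95% interval of the fitted log2 fold change was -8.13 to -0.35. Without the filter on low counts, the same test gave an adjusted p of 0.00607. With the filter and the replicate number as a block, the log2 fold change was -4.86 (SE 1.62, adjusted p = 0.0532). The difference between M512 and MC in the Sorafenib effect was -4.16 on the log2 scale (SE 2.46, adjusted p = 0.965), so that a particular response with M512 was not shown.

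By mean level the 10 groups ran from I200c_DMSO (70.0 CPM) and IC_DMSO (49.4) through IC_sorafenib (10.2), MC_DMSO (5.19), M222_DMSO (5.10), MC_sorafenib (4.83), M222_sorafenib (3.71), M512_DMSO (2.28) and I200c_sorafenib (1.33) to M512_sorafenib (0.0830). Only IC_DMSO and IC_sorafenib, and M512_DMSO and I200c_sorafenib, were neighbours whose libraries did not overlap. The vehicle-treated control of the 24 h experiment thus held 0.0960 of the level of that of the 6 h experiment (log2 difference -3.38, SE 0.85), or -5.09 without MC_DMSO replicate 2 and -4.12 with the replicate number as a block. It shares the libraries that chose the gene and is given with no test. Time after treatment, the control oligonucleotide and the experiment cannot be told apart in this value.

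CYP1A2, the monooxygenase of caffeine that normal hepatocytes express, and CYP1B1, the extrahepatic member of the family, were at the limit of detection. CYP1A2 had 15 counts over 5 of the 12 libraries of 6 h and 10 counts over 2 of the 18 libraries of 24 h. Its highest counts were 6, in I200c_sorafenib replicate 2, and 5, in I200c_DMSO replicate 1 and in M512_DMSO replicates 1 and 3. CYP1B1 had 20 counts over 6 libraries at 6 h, 19 of them in DMSO (2, 1 and 5 in IC_DMSO and 0, 7 and 4 in I200c_DMSO), and 7 counts over 2 libraries at 24 h. The few counts of both genes at 24 h fell in 1 group, M512_DMSO, with 5, 0 and 5 for CYP1A2 and 0, 1 and 6 for CYP1B1. Neither gene passed the filter on low counts, so no test of a difference is given here. Where a group had no counts, absence of the RNA cannot be told from a low level at this depth. RMDN2 on the opposite strand and RMDN2-AS1 on the same strand overlap the 3′ end of CYP1B1 in the annotation used here. The strand setting of the counting is not given in the sources used here. The part of these overlaps in the counts of CYP1B1 was not tested.

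**Figure D2:**
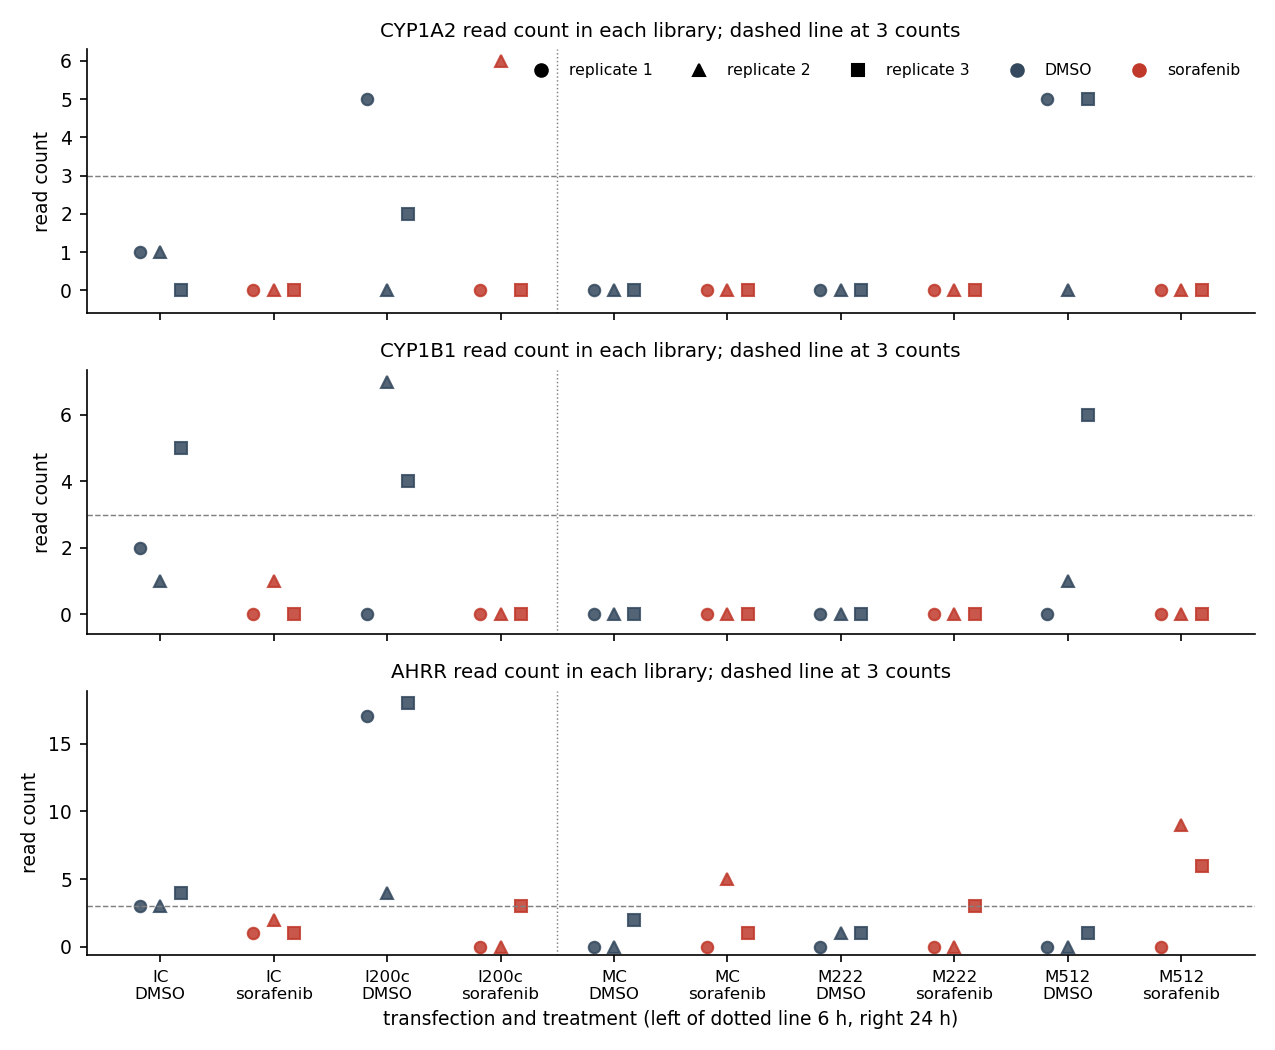
Read counts of CYP1A2, CYP1B1 and AHRR (vertical axes) in each library by transfection and treatment (horizontal axis), with the replicate number as the marker and a dashed line at 3 counts. At 24 h the counts of CYP1A2 and CYP1B1 all lie in M512_DMSO. Those of AHRR reach 18 at 6 h, in I200c_DMSO, and 9 at 24 h, in M512_sorafenib.

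AHRR, the repressor, was also sparse. Counts were 3, 3 and 4 in IC_DMSO and 1, 2 and 1 in IC_sorafenib. In I200c_DMSO they were 17, 4 and 18, and in I200c_sorafenib 0, 0 and 3. In both transfections the DMSO libraries lay above the Sorafenib libraries, as they did for 6.54% of all genes tested with IC and 8.68% with I200c. With I200c the lowest DMSO library had 4 counts and the highest Sorafenib library had 3. Nothing is read from this order, since the comparison chose the members. At 6 h 49 of the 56 counts of AHRR were in DMSO. At 24 h the split was the other way, with 24 of 29 counts in Sorafenib libraries, but only 9 of the 18 libraries had a count, the highest being 9 and 6 in M512_sorafenib and 5 in MC_sorafenib. AHRR did not pass the filter on low counts, and no test of it is given here. In the annotation used here its 3′ end is shared with the read-through gene PDCD6-AHRR, so that reads of the 2 could not be separated.

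The receptor and its partner were measured well, with at least 1 count in every library and sums for AHR of 2833 counts at 6 h and 4702 at 24 h. Like TIPARP they passed the filter in all fits, so that 4 of the 7 members could be tested. Under Sorafenib at 6 h, 0 of these 4 were called with IC, where 0.0393% of genes were, and 1 with I200c, CYP1A1, where 2.28% were. All Sorafenib libraries lay below all DMSO libraries for 1 of the 4 with IC (CYP1A1) and 2 with I200c (CYP1A1 and AHR), as they did for 6.54% and 8.68% of all genes. Nothing is read from these counts, since this comparison chose the members.

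For AHR at 6 h, IC_DMSO held 45.9, 36.5 and 35.6 CPM and IC_sorafenib 39.8, 30.8 and 23.9 CPM, and the ranges overlapped. I200c_DMSO held 39.5, 33.7 and 47.4 CPM and I200c_sorafenib 28.4, 26.9 and 26.8 CPM, with all Sorafenib libraries below. The log2 differences were -0.33 (SE 0.21) with IC and -0.56 (SE 0.20) with I200c, both much smaller than those of CYP1A1.

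At 24 h AHR was higher with Sorafenib, and past the threshold with M512. In M512_DMSO the levels were 23.9, 21.6 and 25.1 CPM and in M512_sorafenib 51.6, 57.2 and 45.3 CPM, a log2 fold change of 1.13 (SE 0.23, adjusted p = 0.00257), or 2.19-fold. This was the 1 call among the 4 tested members with M512, where 9.96% of genes were called and 5.34% were called higher. AHR was called under every alternative tried, and leaving out any 1 library of the 2 groups gave 1.04 to 1.22. With MC the levels were 31.8, 36.6 and 44.7 CPM in DMSO and 63.7, 37.6 and 46.7 CPM with Sorafenib, which overlap (0.40, SE 0.23, adjusted p = 0.398). With M222 they were 41.8, 31.1 and 40.1 CPM against 42.6, 49.0 and 48.2 CPM, which do not overlap (0.30, SE 0.23, adjusted p = 0.523). No member was called with MC, where 2.6% of genes were, or with M222, where 4.38% were.

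Against the mimic control, AHR was lower with the M512 mimic in DMSO and close to it with Sorafenib, and neither difference passed the threshold. M512_DMSO had a mean of 23.5 ± 1.76 CPM against 37.7 ± 6.52 in MC_DMSO, with no overlap (-0.69, SE 0.23, unadjusted p = 0.00632, adjusted p = 0.22), and M512_sorafenib had 51.4 ± 5.93 against 49.3 ± 13.3 in MC_sorafenib (0.04, SE 0.23, adjusted p = 0.976). The difference between the Sorafenib effects missed the threshold too (0.73, SE 0.33, unadjusted p = 0.0335, adjusted p = 0.965). No member was called for M512 against MC in DMSO, where 0.634% of genes were and 10.3% lay without overlap below the control, with Sorafenib, where 0.355% were called, or in the interaction, where 0.00755% were.

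**Figure D3:**
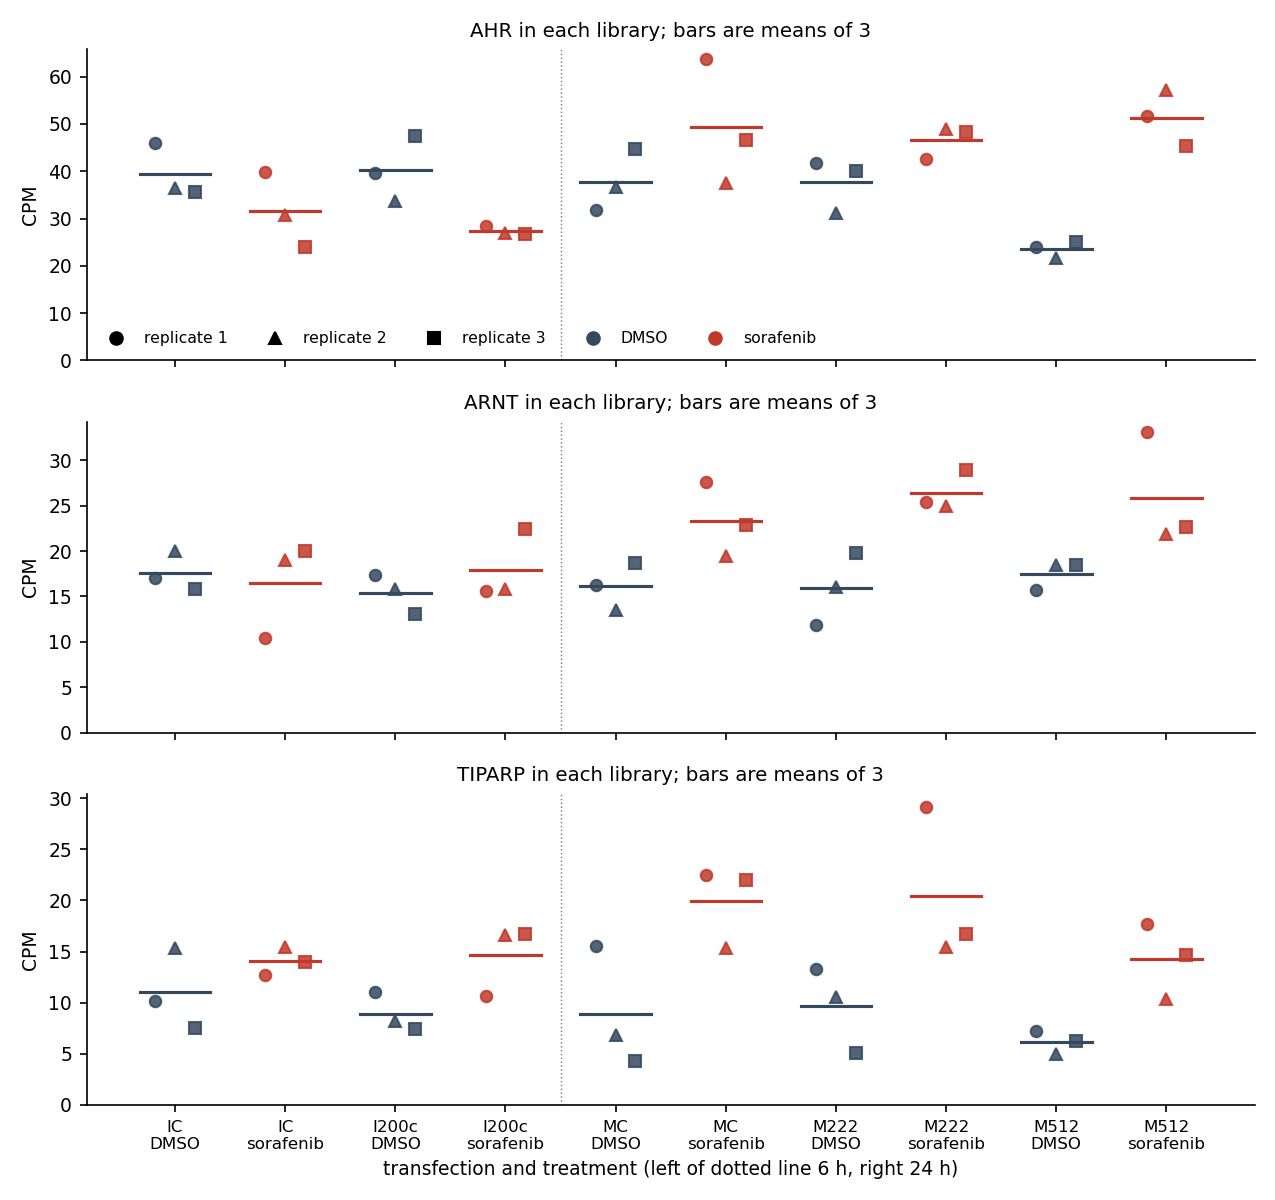
Levels of AHR, ARNT and TIPARP in CPM (vertical axes) in each library by transfection and treatment (horizontal axis), with the replicate number as the marker and a bar at the mean of 3. AHR is lowest on average in M512_DMSO (21.6 to 25.1 CPM), and in ARNT the Sorafenib libraries of 24 h lie above their DMSO libraries in each of the 3 transfections.

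ARNT lay higher with Sorafenib in each of the 3 transfections at 24 h, though no single difference passed the threshold. DMSO gave 16.3, 13.5 and 18.7 CPM with MC, 11.8, 16.0 and 19.8 with M222 and 15.7, 18.4 and 18.4 with M512. Sorafenib gave 27.7, 19.5 and 22.9 CPM, 25.4, 25.0 and 28.9 CPM, and 33.1, 21.8 and 22.7 CPM in the same order. The treatments did not overlap in any of the 3. The log2 fold changes were 0.53 (SE 0.28, adjusted p = 0.344), 0.73 (SE 0.28, adjusted p = 0.145) and 0.57 (SE 0.28, adjusted p = 0.211). At 6 h the differences were -0.10 (SE 0.27) with IC and 0.22 (SE 0.26) with I200c, with overlap in both.

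TIPARP, the ADP-ribosyltransferase, was about 2-fold higher with Sorafenib at 24 h. Levels in DMSO were 15.5, 6.88 and 4.34 CPM with MC, 13.3, 10.6 and 5.03 with M222 and 7.22, 5.02 and 6.23 with M512. With Sorafenib they were 22.5, 15.3 and 22.0 CPM, 29.2, 15.4 and 16.8 CPM, and 17.7, 10.3 and 14.7 CPM. The treatments overlapped only with MC, where DMSO replicate 1 reached the lowest Sorafenib library. The log2 fold changes were 1.15 (SE 0.43, adjusted p = 0.154), 1.07 (SE 0.43, adjusted p = 0.163) and 1.21 (SE 0.44, adjusted p = 0.0802). The last was called when all 30 libraries shared 1 fit (adjusted p = 0.0305) and with the replicate number as a block (adjusted p = 0.0384). At 6 h TIPARP was at 10.2, 15.4 and 7.55 CPM in IC_DMSO and 12.7, 15.4 and 14.0 CPM in IC_sorafenib. It was at 11.1, 8.17 and 7.46 CPM in I200c_DMSO and 10.7, 16.6 and 16.7 CPM in I200c_sorafenib, so that it lay higher on average while CYP1A1 lay lower (log2 differences 0.34, SE 0.30, and 0.72, SE 0.29).

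Of the tested members whose treatments did not overlap at 24 h, 1 was higher with MC (ARNT), 3 with M222 and 3 with M512 (AHR, ARNT and TIPARP in both), where 12.8%, 13.9% and 13.6% of all genes were. The mean Sorafenib effect over MC, M222 and M512 was also tested in the same fit, a contrast added after these values were seen. It averages effects that lay close together for ARNT (0.53, 0.73 and 0.57) and TIPARP (1.15, 1.07 and 1.21). They lay further apart for AHR (0.40, 0.30 and 1.13) and CYP1A1 (-0.08, -0.48 and -4.24), so a mean need not hold in each transfection. Of the 4 members tested, 3 were called, all higher, where 25.8% of all genes were called and 13.4% were called higher. AHR rose by a log2 fold change of 0.61 (SE 0.13, adjusted p = 0.00152), ARNT by 0.61 (SE 0.16, adjusted p = 0.00681) and TIPARP by 1.15 (SE 0.25, adjusted p = 0.00148). CYP1A1 had -1.60 (SE 0.95, adjusted p = 0.228), or -1.98 with the replicate number as a block (SE 0.77, adjusted p = 0.0582). The 3 calls were kept under every alternative, without the 4 libraries numbered 2 of MC and M222 included. CYP1A1 was called without the filter on low counts (adjusted p = 0.028), and without M222_sorafenib replicate 2 its value was -4.11 (adjusted p = 0.00821).

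**Figure D4:**
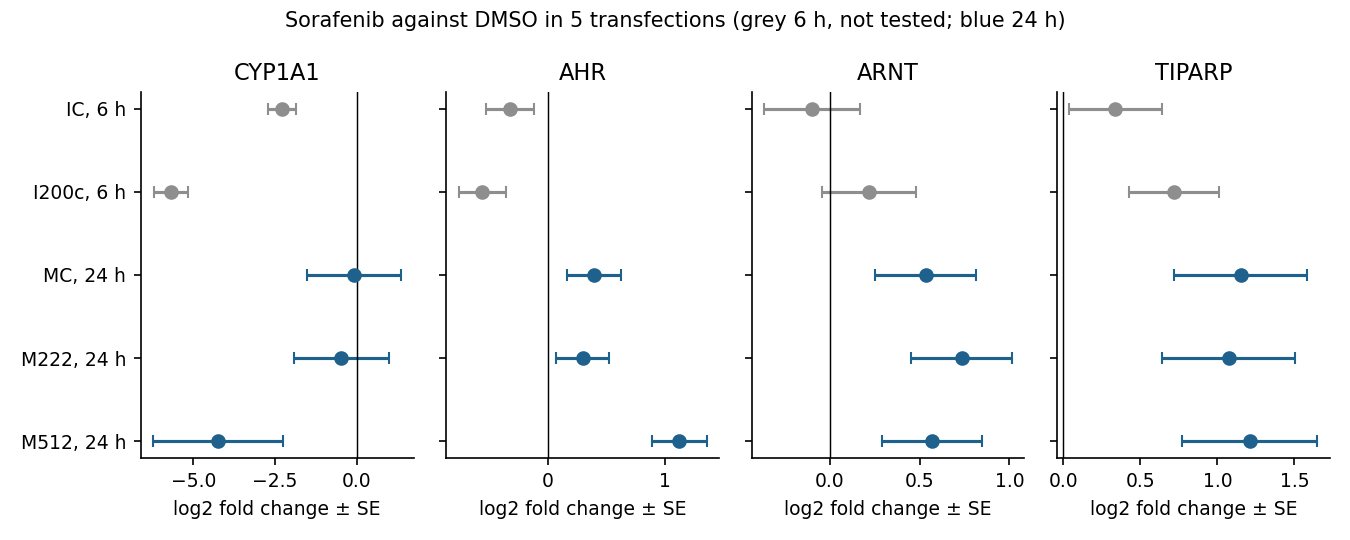
Log2 fold change of Sorafenib against DMSO with its SE (horizontal axes, which differ between panels) in the 5 transfections (vertical axis) for CYP1A1, AHR, ARNT and TIPARP. CYP1A1 lies between -5.69 and -0.08, AHR is negative at 6 h and positive at 24 h, and TIPARP is positive in all 5.

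The oligonucleotides themselves moved no tested member past the threshold. I200c against IC called 0 of the 3 members other than CYP1A1 in DMSO, where 0.0157% of genes were called, and 0 with Sorafenib, where 0% were. Their log2 differences were -0.30 to 0.13. M222 against MC called 0 of 4 in DMSO and with Sorafenib, where 0% of genes were called in either, and the interaction of M222 with Sorafenib called 0, against 0% of genes. For AHR, ARNT and TIPARP these differences between M222 and MC were -0.10 to 0.16, with SE of 0.23 to 0.43, in the fit without a block. In DMSO, with the replicate number as a block, they were -0.01, -0.04 and 0.17 (SE 0.23, 0.28 and 0.37). At an unadjusted p under 0.05, 273 genes passed in I200c against IC with Sorafenib, 737 and 800 in M222 against MC in DMSO and with Sorafenib, and 260 in the M222 interaction, and DESeq2 also called 0 members in each. With so few calls among all genes, these comparisons show little about single members. By unadjusted p alone, 1 member passed for M512 against MC in DMSO (AHR) and 1 with Sorafenib (CYP1A1, -5.32, SE 1.99, adjusted p = 0.288).

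Between the vehicle-treated controls of the 24 h and 6 h experiments, the other tested members differed little: AHR by -0.03 (SE 0.24), ARNT by -0.08 (SE 0.27) and TIPARP by -0.26 (SE 0.39) on the log2 scale. None of these 3 was called, where 0.528% of genes were.

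**Figure D5:**
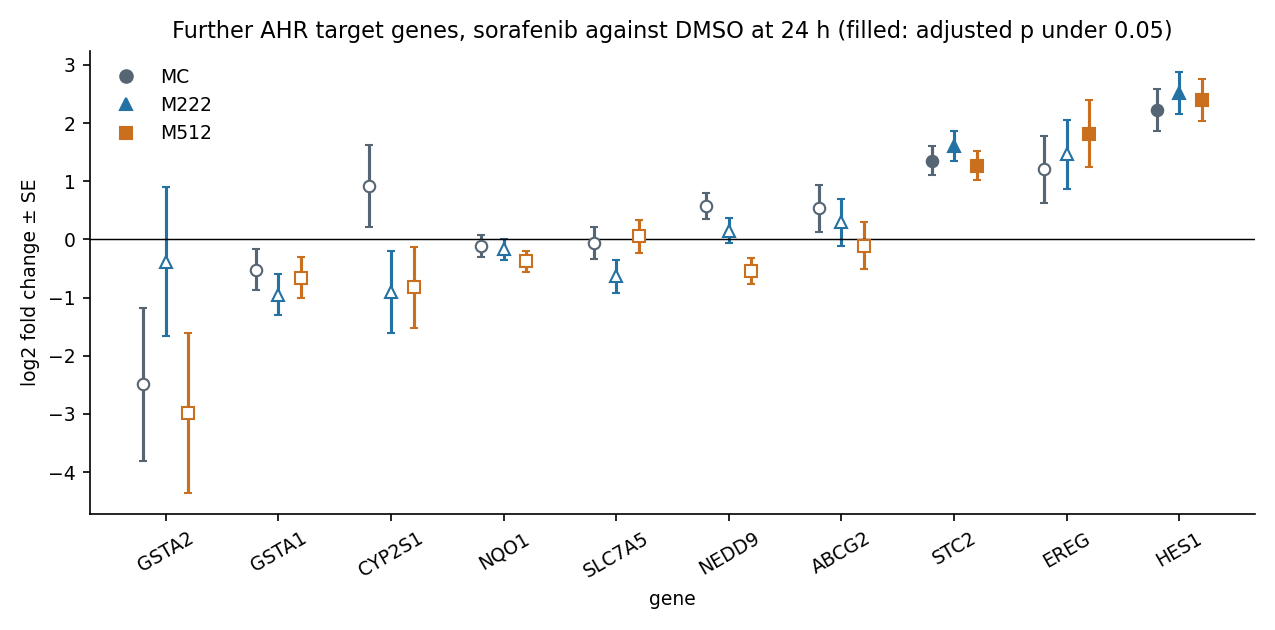
Log2 fold change of Sorafenib against DMSO at 24 h with its SE (vertical axis) for the 10 further AHR target genes tested (horizontal axis) with MC, M222 and M512, filled where the adjusted p was under 0.05. HES1 and STC2 lie above 0 in all 3, and GSTA1 and NQO1 lie below 0 in all 3 without a filled point.

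A further 18 genes known as AHR targets were taken as a list, and 17 of them had a row in the table. No xenobiotic enzyme of the list was called in a single transfection at 24 h: NQO1, a quinone reductase, was between -0.38 and -0.11 on the log2 scale, and GSTA1, a glutathione transferase, between -0.95 and -0.52. In the mean effect over the 3 transfections GSTA1 was lower (-0.71, SE 0.20, adjusted p = 0.0117). ALDH3A1, an aldehyde dehydrogenase, failed the filter at 24 h, and UGT1A4, UGT1A6, UGT1A9 and XDH had no count in any library. The UGT1A genes share their 3′ exons, so that a 3′ method cannot count them apart. Of the 10 genes tested, 2 were called higher with MC and with M222 and 3 with M512, where 1.8%, 2.82% and 5.34% of all genes were. None was called lower, where 0.793%, 1.56% and 4.62% of all genes were. In the mean effect 3 were called higher and 1 lower, the latter being GSTA1, against 13.4% and 12.4% of all genes. The median was 0.55 with MC, -0.01 with M222 and -0.24 with M512, against -0.01, -0.04 and -0.03 over all genes. The called genes were HES1, a repressor downstream of Notch (2.23, 2.52 and 2.40, adjusted p = 0.000907, 0.000365 and 0.000115), STC2, a secreted glycoprotein (1.35, 1.61 and 1.26, adjusted p = 0.00292, 0.00058 and 0.00174), and EREG, a ligand of the epidermal growth factor receptor (1.82 with M512, adjusted p = 0.0445). These 3 are also controlled by other pathways. EREG was at 20.1 and 28.3 CPM in IC_DMSO and I200c_DMSO and at 12.1 and 8.64 CPM with Sorafenib at 6 h, and at 4.54 to 6.83 CPM in DMSO and 12.1 to 21.1 CPM with Sorafenib at 24 h. Of the 11 genes tested at 6 h, 0 were called with IC, where 0.0393% of all genes were. With I200c 1 was called higher and 1 lower, where 2.28% of all genes were called. ALDH3A1 had means of 2.23 and 2.17 CPM in IC_DMSO and I200c_DMSO and 0.51 and 0.49 with Sorafenib, with overlap in both. HES1 had 112 and 94.3 CPM in DMSO and 166 and 166 with Sorafenib.

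Among 10 nuclear coactivators and corepressors, 1, 2 and 1 were called higher with MC, M222 and M512 at 24 h, where 1.8%, 2.82% and 5.34% of all genes were. Called lower were 0, 0 and 1, where 0.793%, 1.56% and 4.62% of all genes were. In the mean effect 2 were called higher and 1 lower, against 13.4% and 12.4% of all genes. KLF6, a zinc finger factor that can bind DNA with AHR, rose in all 3 (1.07, 1.37 and 1.56, adjusted p = 0.00704, 0.000715 and 5.83e-05). At 6 h its means were 181 CPM in IC_DMSO and 173 in IC_sorafenib, and 243 in I200c_DMSO and 144 in I200c_sorafenib. CREBBP, an acetyltransferase, rose with M222 at 24 h (0.81, adjusted p = 0.0374), and MED1, a Mediator subunit, fell with M512 (-0.59, adjusted p = 0.0274). Of the other PAS partners of ARNT 3 of 8 could be tested, and none was called in a single transfection: HIF1A had 0.59 (adjusted p = 0.0558), EPAS1 -0.18 (adjusted p = 0.683) and SIM2 0.29 (adjusted p = 0.831) with M512, and SIM2 had -1.56 with MC (adjusted p = 0.204). In the mean effect HIF1A was called higher (0.33, SE 0.11, adjusted p = 0.0336). Of the enzymes that lead from tryptophan to kynurenine, a source of AHR ligands, 4 of 8 were tested and none was called, while TDO2, IDO2 and KMO had no count. Of 12 genes of other xenobiotic receptors and their cytochromes, 3 were tested (CYP3A5, NR1I2 and RXRA) and none was called in a single transfection at 24 h. CYP3A5 was lower in the mean effect over the 3 transfections (-4.12, SE 1.07, adjusted p = 0.00651). This rests on few counts: summed over replicates, 46, 34 and 33 in DMSO and 5, 3 and 0 with Sorafenib for MC, M222 and M512. Of 8 hepatocyte markers, 0, 2 and 4 were called lower with MC, M222 and M512, where 0.793%, 1.56% and 4.62% of all genes were. In the mean effect 5 were, where 12.4% of all genes were. None was called higher. Among those called lower were HNF4A (-0.73, -0.86 and -1.40 with MC, M222 and M512) and APOB (-0.91, -0.99 and -1.28), neither called with MC. With M512 the means of APOA1 and SERPINA1 were higher with Sorafenib (1250 against 1036 CPM and 655 against 574 CPM, both with overlap). The part of these markers in the members' values was not tested.

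The genes whose pattern over the 30 libraries was most like that of CYP1A1 were described by Pearson's r in log2(CPM + 1) among 12537 other genes. The 30 libraries share 10 groups and 2 experiments and are not independent points. The highest were SOS1 (r = 0.858), a Ras activator, DDX5 (0.854), an RNA helicase, ENSG00000272405 (0.812), AKAP12 (0.807), UBASH3B (0.795) and NPPB (0.790), and the lowest were CREB3L3 (-0.826), PPP1R16A (-0.811) and MST1 (-0.808). SOS1 was at 128 and 184 CPM in IC_DMSO and I200c_DMSO, at 53.6 and 50.9 CPM with Sorafenib at 6 h, and at 23.4 to 85.7 CPM at 24 h. CREB3L3, a liver transcription factor, ran the other way, with 8.04 and 9.12 CPM in DMSO at 6 h, 15.3 and 20.8 CPM with Sorafenib at 6 h, and 28.9 to 38.2 CPM at 24 h. The other tested members were not alike to CYP1A1: r was -0.071 for AHR, -0.247 for TIPARP and -0.496 for ARNT.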

How the data were processed

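Per the labels, RNA of 30 HepG2 cultures (RIN over 9, 350 ng) was made into QuantSeq 3′ FWD libraries. The authors aligned reads to GRCh38 with STAR and counted them with HTSeq in the Bluebee pipeline, and DRAGEN and DESeq2 are named in the processing notes; settings of strand and the annotation release are not given in the sources used here. The deposited raw counts per Ensembl gene were used. The deposited normalised table was not used, because its values are the counts divided by DESeq2 factors computed within each transfection. The 92 rows that name no gene held 3 counts and were left out.

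Members, gene lists and the rule for named genes were chosen with earlier results of these data known. The named genes were all 7 members, up to 5 genes of each list called in a 24 h Sorafenib comparison, and the 6 genes most and 3 least like CYP1A1. NQO1, GSTA1, ALDH3A1, HIF1A, EPAS1, SIM2, RXRA, NR1I2 and genes with no count were named outside it, after their values were seen. Genes were tested with edgeR 4.0.16 (R 4.3.3), TMM factors, filterByExpr and the two-sided quasi-likelihood F test, with Benjamini-Hochberg adjustment over all genes of the fit and calls at an adjusted p under 0.05, in 12 libraries of 6 h (12738 genes), 18 of 24 h (13244) and 12 of both controls (12500). SE is the log2 fold change divided by the square root of F. Levels are CPM with TMM factors over all 30 libraries. Upstream elements and seed sites were searched in GRCh38 with GENCODE v44 and RefSeq tables. Alternatives were other scalings, no filter, DESeq2 1.42.0, 1 fit of all libraries, a replicate block and leaving out libraries. The steps were tested on simulated counts. The results of 1 gene list and the seed sites of miR-512-3p are not reported here.

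Same-numbered libraries deviated together, with every correlation over 0.1, only for M222 against MC in DMSO (0.188 to 0.202). That comparison was tested without a block, and the fit with the number as a block is given beside it. The block changed no call of a member there, and CYP1A1 had -0.74 with it. No 2 replicates agreed within counting noise (chi-square per degree of freedom 4.54 to 66.2).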

Additional observations from a re-analysis of the deposited data

How the results depend on the processing

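Each comparison was repeated with RLE factors, total counts, no filter on low counts, DESeq2, 1 fit of all 30 libraries, a replicate block, each library of its groups left out, and, chosen after seeing the data, without the 4 libraries numbered 2 of MC and M222. Total counts shifted the median of all genes by -0.107, -0.106 and -0.188 on the log2 scale in the Sorafenib comparisons of MC, M222 and M512 at 24 h. The count of members called was 1 for Sorafenib with M512 and became 2 without the filter, with the replicate block and in the fit of all 30 libraries. The added call was CYP1A1 without the filter (-4.23, adjusted p = 0.00607) and TIPARP in the other fits (1.20 with the block, adjusted p = 0.0384, and 1.24 in all libraries, adjusted p = 0.0305). Without the filter, 1 member was also called for M512 against MC with Sorafenib (CYP1A1, -5.31, adjusted p = 0.00141), and CYP1A1 in the mean effect at 24 h (-1.59, adjusted p = 0.028). The cause was not tested. For the comparison of 6 h with IC, which chose the members, the count was 0, where 0.0393% of all genes were called. It became 1 without the filter, and was 0 to 1 leaving out a library, with the 1 being without IC_DMSO replicate 2. Nothing is read from this count, since the comparison chose the members. Apart from these changes and a count of 4 in the mean effect, without the filter or without M222_sorafenib replicate 2, no count of called members changed, block included. The counts for I200c against IC and for the 24 h against the 6 h control leave out CYP1A1, whose values there are a description. Its difference between the controls was -3.38, and -4.12 with the replicate block.

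Sign changes were seen only in values that missed the threshold. CYP1A1 with Sorafenib at 24 h ranged, leaving out 1 library, from -2.21 to 1.77 with MC and from -8.02 to 2.92 with M222. In M512 against MC in DMSO, CYP1A1 was 0.22 with the block, 0.69 without the 4 libraries, and -1.65 to 0.69 leaving out 1. For M222 against MC in DMSO, AHR was 0.0146 in the fit of all libraries and 0.11 without the 4, TIPARP was -0.0903 without the 4, and leaving out 1 library gave -3.40 to 1.82 for CYP1A1, -0.10 to 0.16 for AHR, -0.22 to 0.14 for ARNT and -0.22 to 0.82 for TIPARP. With Sorafenib, TIPARP was -0.0438 with the block, and leaving out 1 gave -7.97 to 1.73 for CYP1A1, -0.24 to 0.15 for AHR and -0.31 to 0.22 for TIPARP. For M512 against MC with Sorafenib, AHR was -0.0794 on total counts, -0.10 without the 4 and -0.10 to 0.29 leaving out 1, and ARNT was -0.0823 to 0.30. In DMSO TIPARP was -0.88 to 0.15. The interaction of M222 gave 0.15 for TIPARP without the 4, and leaving out 1 gave -7.93 to 3.01 for CYP1A1, -0.25 to 0.15 for AHR and -0.76 to 0.26 for TIPARP. The interaction of M512 gave -0.0385 for ARNT and -0.0154 for TIPARP on total counts, -0.0903 for TIPARP with the block, and -0.19 to 0.19 for ARNT and -0.63 to 0.40 for TIPARP leaving out 1. For I200c against IC, leaving out 1 library gave -0.10 to 0.17 for AHR and -0.49 to 0.0052 for TIPARP in DMSO, and -0.35 to 0.0085 for AHR, -0.11 to 0.30 for ARNT and -0.0245 to 0.26 for TIPARP with Sorafenib. Between the controls it gave -0.19 to 0.093 for AHR, -0.21 to 0.0038 for ARNT and -0.97 to 0.0806 for TIPARP. Of the 18 libraries left out in turn, 1 gave a call of CYP1A1 in the mean effect (-4.11, adjusted p = 0.00821).

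With 3 replicates a group and few counts, CYP1A2, CYP1B1 and AHRR did not pass the filter, and no test of them is given. The SE of CYP1A1 with Sorafenib at 24 h was 1.44 to 1.99 in the main fit.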
